A study of Mus musculus with 18 samples.

Results

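The 10 genes described here are 8 genes known to be induced by glucocorticoids (Fkbp5, Tsc22d3, Sgk1, Ddit4, Zbtb16, Cdkn1a, Errfi1 and Pdk4) and the metallothioneins Mt1 and Mt2. They were chosen by name as stress hormone targets that bear on water restriction and handling, and all 10 were found among the 23924 genes of the expression table. Expression was measured by RNA sequencing in astrocytes of the primary motor cortex (M1) of wild-type C57BL/6 mice, in 18 libraries. The 6 naive libraries came from untrained mice 12 to 21 weeks old, the 6 novice libraries from mice 11 to 13 weeks old after only 3 days of training, and the 6 expert libraries from fully trained mice 13 to 15 weeks old. Each group had 2 libraries labelled female and 4 labelled male. The trained mice were short of water and pushed a lever on a cue for a drop of it, and the labels do not say whether naive mice were also water restricted. Neither the way the astrocytes were isolated nor a separate animal for each library is stated in the labels, so p-values measure the spread between libraries. The comparisons ask whether these hormone responsive genes stood at a different level after brief or full training.

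Corticosterone, the glucocorticoid of the mouse, is released from the adrenal cortex during stress and also follows a daily rhythm. It crosses into the brain and binds the glucocorticoid receptor, which is held ready by heat shock proteins, enters the nucleus and binds paired copies of a short motif near its target genes. Astrocytes carry the receptor and respond to the hormone with many of the same genes as peripheral tissues. Metallothioneins are small cysteine rich proteins that bind zinc and copper. Mt1 and Mt2 are abundant in astrocytes, lie side by side in the genome, and are induced by metals through the factor Mtf1, by glucocorticoids and by oxidative stress.

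The start regions of Mt1, Mt2 and Sgk1 are shown because Mt1 and Mt2 varied together between libraries and because Sgk1 was the only member with a full paired glucocorticoid motif in such a window. The windows come from RefSeq on build GRCm38.p6, each running from 250 bases before to 50 bases after a transcript start, whereas the expression values rest on build mm9. In the Mt1 and Mt2 windows the capitals mark the core of the metal response element, written TGCACNC or TGCGCNC and searched on both strands. In the Sgk1 window they mark the glucocorticoid response element, written AGAACA, any 3 bases, then TGTTCT, which reads the same on both strands.
Mt1, chr8:94178839-94179138, plus strand: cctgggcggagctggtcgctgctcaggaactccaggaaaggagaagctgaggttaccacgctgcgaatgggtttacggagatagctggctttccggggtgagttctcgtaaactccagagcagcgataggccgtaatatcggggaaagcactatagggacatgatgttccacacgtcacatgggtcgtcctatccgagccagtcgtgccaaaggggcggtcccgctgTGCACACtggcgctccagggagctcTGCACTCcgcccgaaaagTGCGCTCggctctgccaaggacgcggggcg
Mt2, chr8:94172368-94172667, plus strand: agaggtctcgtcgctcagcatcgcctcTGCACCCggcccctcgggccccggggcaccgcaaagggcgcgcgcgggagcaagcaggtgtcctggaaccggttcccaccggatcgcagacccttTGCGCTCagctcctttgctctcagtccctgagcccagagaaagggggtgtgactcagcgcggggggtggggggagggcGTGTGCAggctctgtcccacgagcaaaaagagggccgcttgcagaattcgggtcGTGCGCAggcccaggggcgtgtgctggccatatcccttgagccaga
Sgk1, chr10:21993640-21993939, plus strand: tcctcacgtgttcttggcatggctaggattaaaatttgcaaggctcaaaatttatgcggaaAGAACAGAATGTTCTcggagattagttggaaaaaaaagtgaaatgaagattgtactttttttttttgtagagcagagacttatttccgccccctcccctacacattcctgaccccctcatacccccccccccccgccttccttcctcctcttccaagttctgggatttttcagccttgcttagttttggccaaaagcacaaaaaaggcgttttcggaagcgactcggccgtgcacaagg
The metal response core was found 3 times in the Mt1 window and 4 times in the Mt2 window. The window of Mt3, a relative that is not a member and that also varied with Mt1, held 1 copy. At least 1 copy stood in 25.7% and at least 3 copies in 1.97% of the 32851 windows of all genes. The full glucocorticoid motif was found in 3 of these windows, of which the Sgk1 window shown is 1, and it began 189 bases before that transcript start. The other 5 Sgk1 windows had no full motif. Windows were given for 9 of the 10 members, 18 windows in all, and the full glucocorticoid motif was in no other member's window. One arm of it, AGAACA on either strand, was present in 19.0% of all windows. These matches describe letters in a short window and were not tested for binding.

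Values are FPKM, that is, fragments counted per kilobase of a transcript and put relative to how many fragments the library had mapped. Genes that brain does not normally use (1571 olfactory, vomeronasal and taste receptor, keratin associated and beta defensin genes) had a mean between 0.303 and 6.73 FPKM, and the libraries fell into 10 with a lower mean of 0.303 to 3.33 and 8 with a higher mean of 4.67 to 6.73. The higher class held 2 naive, 4 novice and 2 expert libraries. Depth could be read from the steps of low values in 17 libraries, where 1 fragment on a transcript of 1 kb was worth 0.597 to 1.89 FPKM. Expert 3 had the lowest silent-gene mean, the most genes at 0 (5430) and no such step. The 12 astrocyte markers averaged 5.76 to 8.01 on the log2(FPKM + 1) scale in the 18 libraries, and Slc1a3, the glutamate transporter of astrocytes, had 207 to 995 FPKM. Markers of endothelium, neurons, oligodendrocytes and microglia were present too, with none of these defining markers at 0 in all libraries. Novice 1 and novice 3 went against their labelled sex by Xist and the Y-linked Ddx3y. In such bulk libraries fewer cells of a type and less RNA per cell cannot be told apart.

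Mt1 was the most abundant member, with a mean of 779.8 FPKM over the 18 libraries, followed by Mt2 at 200.9 FPKM and Tsc22d3 at 47.6 FPKM. Each of these 3 stood above the next gene in that order in 18 of 18 libraries. The other 7 members had much lower and overlapping levels, from Pdk4 at 13.1 FPKM through Sgk1 at 11.0, Zbtb16 at 8.54, Ddit4 at 7.51, Errfi1 at 5.64 and Cdkn1a at 4.37 to Fkbp5 at 3.62 FPKM. Neighbours among these 7 changed places between libraries. Pdk4 was above Sgk1 in 12 of 18 libraries, and Cdkn1a was above Fkbp5 in 10 of 18. The lowest members lay close to the signal of genes silent in brain. Fkbp5 was below the silent-gene mean of its own library in 8 libraries, of which 7 were in the higher class. The same was true of Cdkn1a in 6 libraries, Ddit4 in 5, Errfi1 in 3 and Zbtb16 in 2. The other 5 members were above the silent-gene mean in every library. The median of the silent genes was lower than their mean, at 0.0 to 3.06 FPKM. Below that median were only Ddit4 in naive 1 and naive 6 and Cdkn1a in novice 5.

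None of the 10 members passed an adjusted p of 0.05 in any comparison of training stages, in limma on log2(FPKM + 1) with Benjamini-Hochberg adjustment over the 21745 genes tested. No gene at all passed, so the background was 0% in novice against naive, in expert against naive and in expert against novice. At an unadjusted p under 0.05 the background was 4.6%, 2.86% and 10.9% of genes in these comparisons, and 1, 2 and 0 of the 10 members were below it. In the F test for any difference among the groups 5.53% of genes had such a p, and Ddit4 (unadjusted p = 0.014, adjusted p = 0.75) was the 1 member among them. No member had groups that did not overlap, against 0.129%, 0.0782% and 0.432% of all genes. The median log2 difference of the members was 0.09, 0.06 and 0.00 in the same order of comparisons, beside 0.07, -0.05 and -0.14 for all genes tested. Genes with a mean of at least 5 FPKM had medians of -0.09, 0.02 and 0.14. Of the 10 members, 6 were higher in novice than naive, 6 higher in expert than naive and 5 higher in expert than novice, where 57%, 43.9% and 40.4% of all genes were higher. Novice against naive and expert against naive share the naive libraries. The members with an unadjusted p under 0.05 were Tsc22d3 in both comparisons with naive and Ddit4 in expert against naive.

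**Figure D1:**
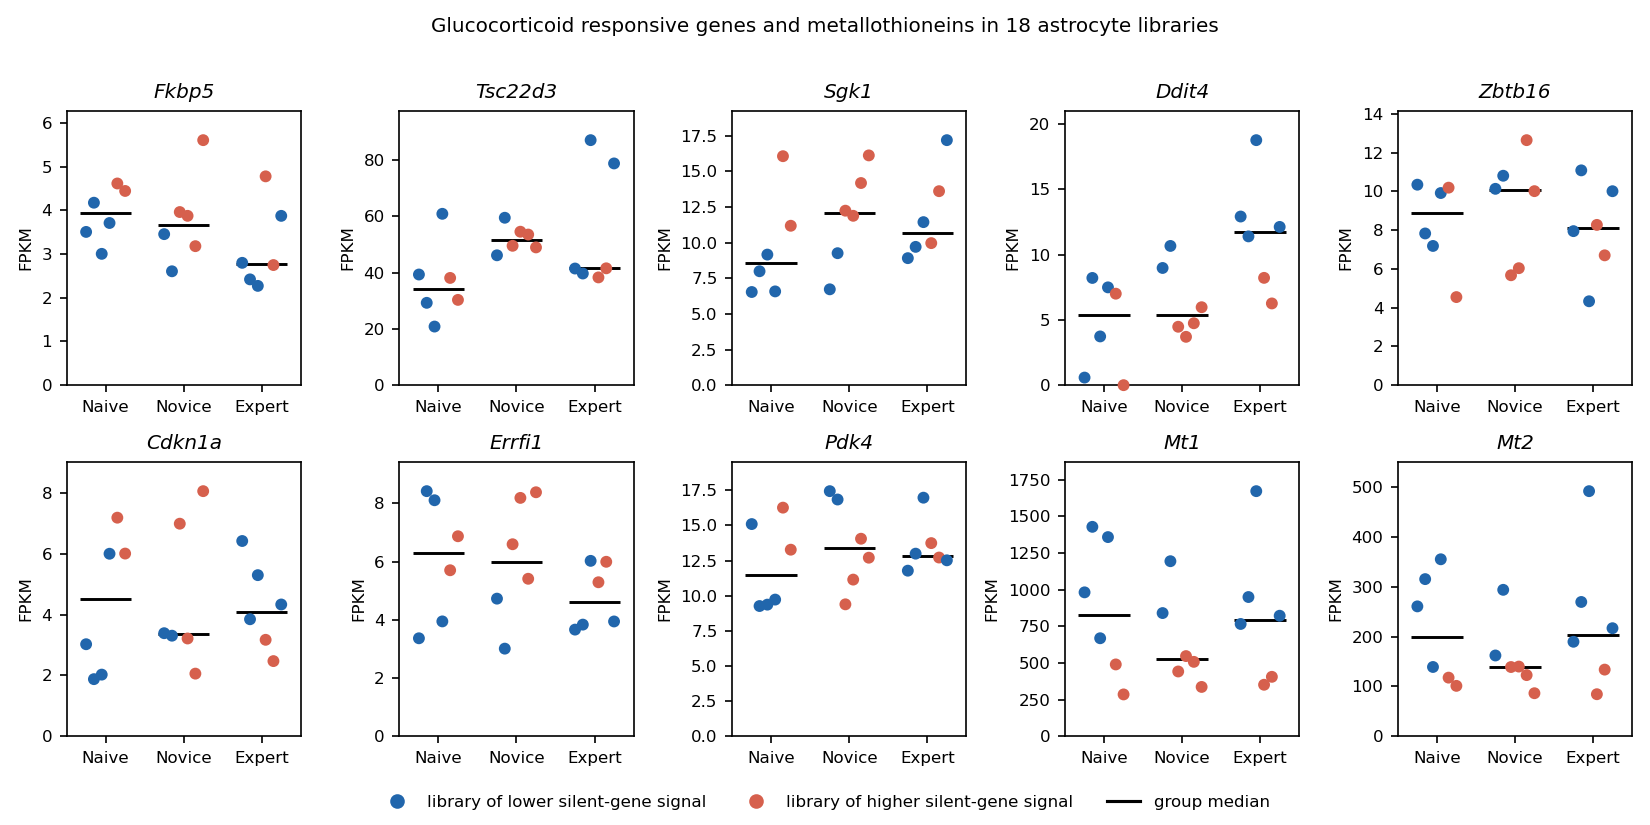
FPKM of the 10 members in each library, 1 panel per gene with its own axis from 0. Points are libraries in order of replicate within each group, the colour gives the class of silent-gene signal and the bar is the group median. Ddit4 reached 18.8 FPKM in an expert library and was listed at 0 in a naive one, and the Mt1 values of the 2 classes do not overlap.

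Ddit4 encodes REDD1, an inhibitor of mTORC1 signalling that is induced by glucocorticoids, low oxygen and energy stress. It had the largest difference among the members. Naive libraries had 0.581, 8.21, 3.73, 7.49, 7.01 and 0.0 FPKM (naive 1 to 6). Novice libraries had 8.98, 10.7, 4.47, 3.70, 4.74 and 5.97 FPKM. Expert libraries had 12.9, 11.4, 18.8, 8.22, 6.26 and 12.1 FPKM. All 6 expert libraries were above the naive median of 5.37 FPKM, but expert 5 was below 3 naive libraries, so the groups overlap. The log2 difference between expert and naive was 1.55 (SE 0.47), a 2.93-fold difference on the log2(FPKM + 1) scale, with an unadjusted p of 0.0039 and an adjusted p of 0.9996 in limma. A smaller unadjusted p was found for 20 of the 21745 genes, which is 0.092%. Novice was 0.78 (SE 0.47) above naive, and expert was 0.77 (SE 0.47) above novice, with adjusted p of 0.89 and 0.46 in limma.

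The Ddit4 values rested on few fragments. They were whole multiples of 1 fragment in 17 of 17 libraries with a step, and came to 1, 19, 8, 13, 11 and 0 fragments in naive, 23, 28, 5, 5, 6 and 9 in novice, and 26, 36, 9, 11 and 34 in the expert libraries other than expert 3. Naive 6, listed at 0, was the shallowest of the 17 libraries with a step, and 1 fragment of Ddit4 was worth 1.004 FPKM there. A count of 0 in naive 6 allows up to 3.01 FPKM (3 fragments, counting error only). The single fragment of naive 1 has a 95% Poisson interval of 0.0147 to 3.24 FPKM. Without naive 6 the expert against naive difference was 1.15, and with a pseudocount of 0.1 in place of 1 it was 2.32. Residual spread was wide, with an SD of 0.90 on the log2 scale, above that of 87.0% of the genes with a mean of at least 5 FPKM.

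Ddit4 was compared among libraries of like silent-gene signal. In the lower class the 4 expert libraries had 11.4 to 18.8 FPKM and the 4 naive ones 0.581 to 8.21 FPKM, and these did not overlap, as for 2.58% of all genes. The log2 difference was 1.56 (SE 0.46, unadjusted p = 0.0056, adjusted p = 0.76 in limma within the class), and 1.02 without naive 1, the library with 1 fragment. In the higher class it was 1.53 (SE 0.77, adjusted p = 0.79 in limma), from 2 expert and 2 naive libraries that overlap, and it rested on naive 6, the library at 0 fragments. Naive 5, at 7.01 FPKM, lay between expert 5 and expert 4, at 6.26 and 8.22 FPKM, and without naive 6 the difference was 0.031. Novice 1 and 2, of the lower class, had 8.98 and 10.7 FPKM, and the 4 novice libraries of the higher class 3.70 to 5.97 FPKM. An unadjusted p under 0.05 for expert against naive was found in 28 of 28 alternative settings, and an adjusted one in none. No setting left out naive 1 and naive 6 together, so this count does not show how far the difference rests on both.

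Tsc22d3 encodes GILZ, a leucine zipper protein that carries part of the anti-inflammatory action of glucocorticoids. It was the most abundant of the hormone responsive genes apart from the metallothioneins, and its mean was higher in both trained groups than in naive mice. Naive libraries had 39.3, 29.2, 20.8, 60.9, 38.1 and 30.3 FPKM. Novice libraries had 46.1, 59.5, 49.5, 54.5, 53.5 and 48.9 FPKM. Expert libraries had 41.4, 39.7, 87.0, 38.3, 41.5 and 78.8 FPKM. The novice values were tight and stood above 5 of the 6 naive libraries, while naive 4 was above all of them. In the expert group expert 3 and expert 6 were high and the other 4 lay between 38.3 and 41.5 FPKM.

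Novice was 0.57 (SE 0.26) above naive for Tsc22d3 on the log2 scale, with an unadjusted p of 0.041 and an adjusted p of 0.89 in limma. Expert was 0.55 (SE 0.26) above naive, with an unadjusted p of 0.047 and an adjusted p of 0.9996. Expert and novice differed by -0.02 (95% interval -0.56 to 0.53). Within the classes of silent-gene signal, novice against naive was 0.58 in the lower and 0.59 in the higher class, and in the latter the 4 novice libraries (48.9 to 54.5 FPKM) did not overlap the 2 naive ones, as for 15.1% of genes. Expert against naive was 0.72 in the lower and 0.22 in the higher class. An unadjusted p under 0.05 was found in 17 of 28 alternative settings for novice against naive and in 9 of 28 for expert against naive. Without novice 1 and novice 3 the differences from naive were 0.63 and 0.55, with unadjusted p of 0.057 and 0.060 in limma.

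Endothelial markers stood apart in the same 2 expert libraries. The mean of 12 endothelial markers on the log2(FPKM + 1) scale was 5.44 in expert 3 and 5.60 in expert 6, and between 3.69 and 4.88 in the other 16 libraries. All 12 were higher in expert than naive (median log2 difference 0.64), and 9 had an unadjusted p under 0.05. Over all genes 43.9% were higher and 2.86% had such a p. Endothelium was not alone in this. Pericyte and smooth muscle markers averaged 4.26 in expert 3 and 4.49 in expert 6, and 3.16 to 3.96 in the other 16 libraries. All 9 of these markers were higher in expert than naive. Expert 3 also had the highest mean of astrocyte markers, at 8.01. With the endothelial level as a covariate, expert against naive for Tsc22d3 was 0.21 (SE 0.27), and without expert 3 and expert 6 it was 0.21 (SE 0.24). Leaving out expert 3 alone gave 0.40, and expert 6 alone 0.43. Novice against naive was 0.58 (SE 0.23) with that covariate and 0.57 without the 2 expert libraries. These settings were chosen after the values were seen, and the part of endothelial or pericyte RNA in the expert values was not tested further. Expert 3 and expert 6 had the highest Tsc22d3 of the expert group, so leaving them out had to lower its difference from naive.

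Zbtb16 encodes PLZF, a zinc finger repressor that is strongly induced by glucocorticoids in many tissues. Its levels were 4.55 to 10.3 FPKM in naive (median 8.87), 5.67 to 12.6 in the novice group (median 10.1) and 4.33 to 11.1 in expert libraries (median 8.11). The ranges overlap nearly throughout. The log2 differences were 0.12 between novice and naive, -0.05 between expert and naive and -0.17 between expert and novice, each with an SE of 0.25.

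Fkbp5 encodes the cochaperone FKBP51, which lowers the hormone affinity of the glucocorticoid receptor and is a widely used readout of its activity. It was the lowest member. Naive libraries had 3.01 to 4.62 FPKM (median 3.95), novice libraries 2.61 to 5.61 (median 3.67) and expert libraries 2.27 to 4.78 (median 2.78). The expert median was the lowest, with 4 of 6 expert libraries below every naive library and expert 4 and expert 6 within or above the naive range. Expert was lower than naive by a log2 difference of -0.26 (SE 0.19, 95% interval -0.67 to 0.14, adjusted p = 0.9996 in limma), and novice differed from naive by -0.05 (95% interval -0.46 to 0.35). These intervals include no increase above 0.35 in log2. They rest on 10 to 27 fragments per library, and a pseudocount of 1 narrows the log2 spread of so low a gene. Because Fkbp5 lay below the silent-gene mean in 7 of the 8 libraries of the higher class, a change in it may not be detectable at this depth in those libraries. Against the lower median of the silent genes, Fkbp5 was higher in every library.

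Sgk1, a kinase that adjusts ion channels and transporters to hormone and salt, had 6.53 to 16.1 FPKM in naive (median 8.57), 6.72 to 16.1 in the novice group (median 12.1) and 8.90 to 17.2 in expert libraries (median 10.7). All 3 groups reached about the same highest level, in naive 5 and novice 6 of the higher class of silent-gene signal and in expert 6 of the lower. The mean of Sgk1 was 13.1 FPKM in the higher class and 9.34 FPKM in the lower. The log2 differences from naive were 0.28 for novice and 0.30 for expert (SE 0.24 each), with adjusted p of 0.89 and 0.9996 in limma. Within the classes expert against naive was 0.55 (SE 0.23) in the lower and -0.19 (SE 0.28) in the higher class, with adjusted p of 0.79 and 0.91 in limma. Novice against naive was 0.07 and 0.01 there. With the endothelial level as a covariate expert against naive was -0.01. The genes whose residual pattern was most like that of Sgk1 over the 18 libraries, after removing group means and the silent-gene signal, were H2-D1 (Pearson r 0.89), Vwf (0.89) and Bcam (0.86). Vwf, von Willebrand factor, is made by endothelial cells, and the part of such cells in the Sgk1 values was not tested.

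Errfi1 encodes MIG6, a feedback inhibitor of the epidermal growth factor receptor. Naive libraries had 3.36, 8.42, 8.11, 3.94, 5.70 and 6.87 FPKM. Novice libraries had 4.73, 3.01, 6.60, 8.19, 5.41 and 8.38 FPKM. Expert libraries had 3.66, 3.83, 6.03, 5.29, 5.99 and 3.94 FPKM. The expert values did not reach the highest naive and novice values, and all groups overlap. Expert was lower than naive by a log2 difference of -0.25 (SE 0.25, adjusted p = 0.9996 in limma) and novice differed from naive by -0.00.

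The libraries with the most Errfi1 were among those with the most transcripts best known from liver. Expert 5 was also high in these transcripts, with 5.99 FPKM of Errfi1. Residual patterns, after removing group means and the silent-gene signal, were compared over 18 libraries. The 3 genes most like Errfi1 were Serpina1a, which encodes alpha-1 antitrypsin (Pearson r 0.94), Apoa1, an apolipoprotein (0.93), and Gnmt, glycine N-methyltransferase (0.93). Alb, serum albumin, ranged from 96.1 FPKM in naive 4 to 1661 FPKM in novice 6, and was 1643 FPKM in naive 3, 951.1 in naive 2 and 1056 in expert 5. A list of 11 liver transcripts, drawn up after these values were seen, had a mean on the log2(FPKM + 1) scale of 4.04 to 7.44 over the naive libraries, 4.36 to 7.52 over the novice ones and 4.14 to 6.85 over the expert ones, and none was at 0 in all libraries. All 11 were lower in expert than in naive (median log2 difference -0.76), and none had an unadjusted p under 0.05. Among all genes 43.9% were higher in expert than naive, and 2.86% had such a p. The list holds Serpina1a and Apoa1, named above for their likeness to Errfi1, so its relation to Errfi1 is given as a description with no test. Pearson r between Errfi1 and the list mean was 0.93 in the lower class of 10 libraries and 0.69 in the higher class of 8 (Spearman rho 0.73 and 0.76), and the 9 other genes alone gave r of 0.93 and 0.68. Without naive 2 and naive 3, the farthest out in the lower class, r was 0.78 with all 11 genes. Without novice 6 and expert 4 it was 0.33 in the higher class, so there the relation rests on those 2 libraries. With the liver level as a covariate expert against naive for Errfi1 was -0.01 (SE 0.17). Because the list was drawn up after its likeness to Errfi1 was seen, such a covariate was likely to take up differences in Errfi1. This value therefore decides nothing. The part of these transcripts in the Errfi1 values was not tested further.

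**Figure D2:**
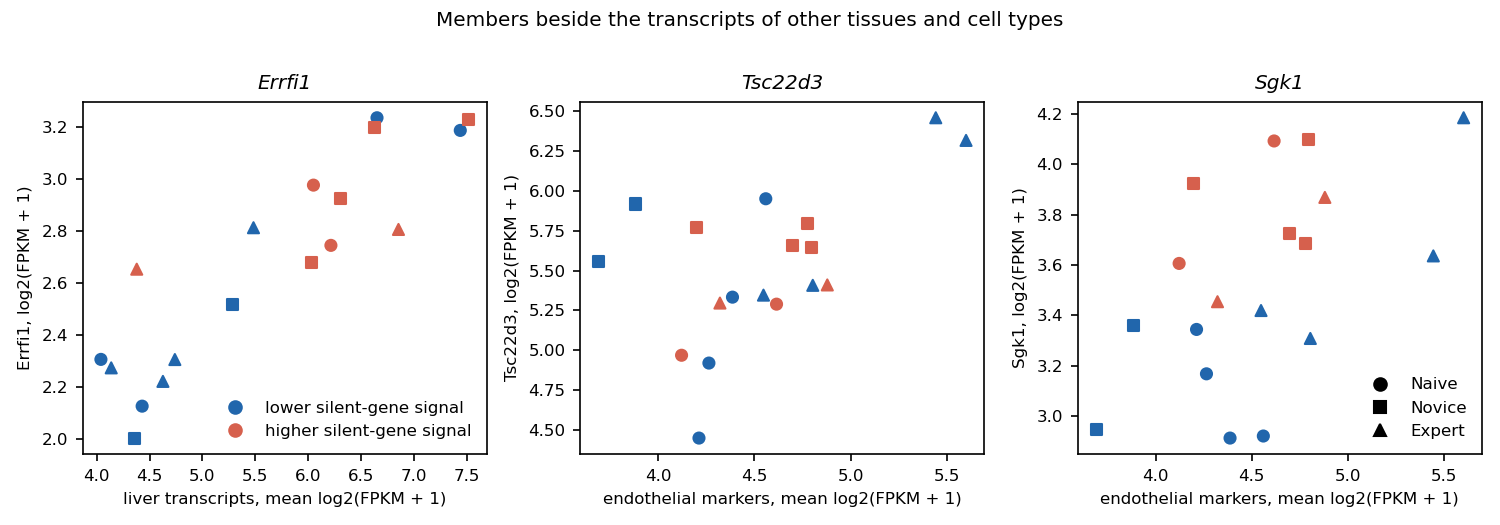
Errfi1 against the mean of 11 liver transcripts, and Tsc22d3 and Sgk1 against the mean of 12 endothelial markers, 1 point per library, all on the log2(FPKM + 1) scale. Shape gives the group and colour the class of silent-gene signal. Errfi1 runs with the liver transcripts over naive, novice and expert libraries, and the 2 highest Tsc22d3 points are the 2 expert libraries with the most endothelial RNA, at 5.44 and 5.60.

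Cdkn1a encodes p21, an inhibitor of the cell cycle that is also a target of p53. It had 1.88 to 7.19 FPKM in naive (median 4.51), 2.06 to 8.06 in the novice group (median 3.35) and 2.47 to 6.42 in expert libraries (median 4.09), from 3 to 15 fragments. The groups overlap nearly throughout. The log2 differences were 0.05, 0.05 and -0.00 (SE 0.32 each), and their intervals reach from -0.67 to 0.72. In the lower class expert against naive was 0.58 and in the higher class -0.99, with adjusted p of 0.83 and 0.79 in limma.

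Pdk4 encodes a kinase that shuts the pyruvate dehydrogenase complex and so spares glucose during fasting. It was steady, with 9.27 to 16.3 FPKM in naive (median 11.5), 9.39 to 17.4 in the novice group (median 13.4) and 11.8 to 16.98 in expert libraries (median 12.9). The log2 differences were 0.15 between novice and naive, 0.16 between expert and naive and 0.01 between expert and novice (SE 0.19 each), and the 95% intervals against naive ended at 0.56 and 0.57. Of the genes with a mean of at least 5 FPKM, 9.65% had a smaller residual SD. In the lower class novice 1 and 2 (17.4 and 16.9 FPKM) stood above the 4 naive libraries (9.27 to 15.1 FPKM), where 17.2% of genes did not overlap, and in the higher class novice against naive was -0.31.

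**Figure D3:**
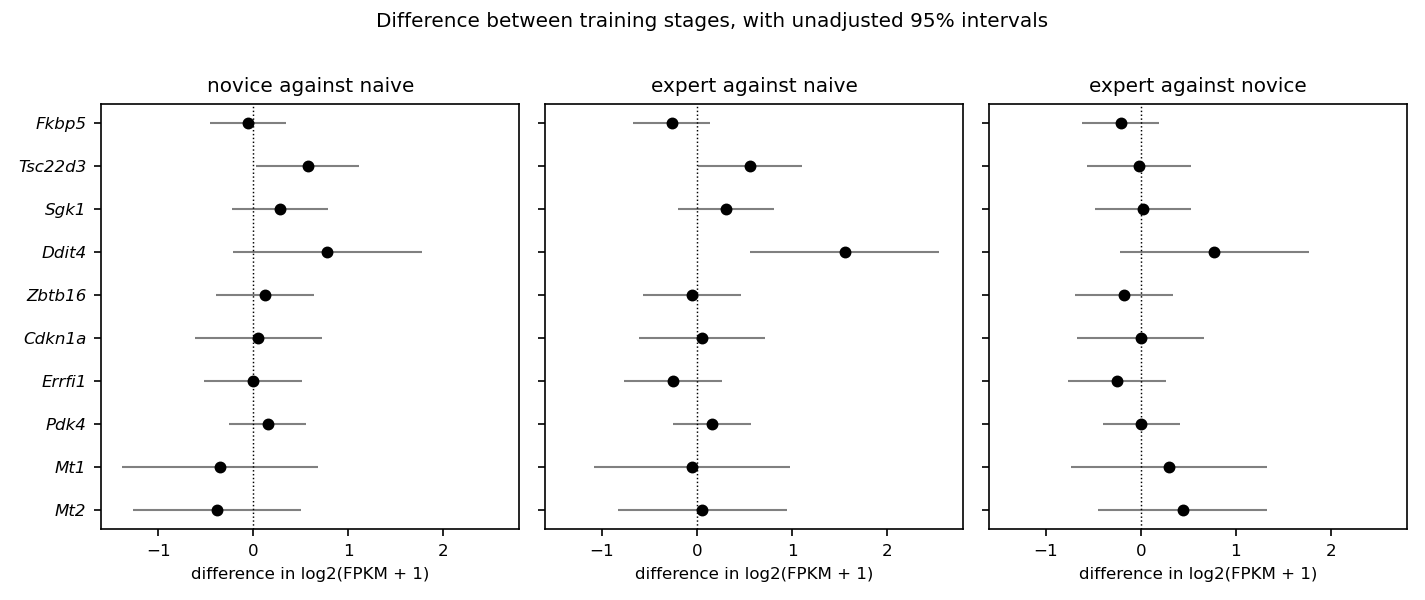
Difference in log2(FPKM + 1) between training stages for each member, with its unadjusted 95% interval from limma; the dotted line marks no difference. Intervals clear of 0 are those of Tsc22d3 against naive in both trained groups and of Ddit4 in expert against naive, at 1.55.

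Mt1 and Mt2 were far more abundant than the other members and varied several fold within each group. Mt1 had 981.1, 1428, 668.0, 1358, 489.3 and 284.8 FPKM in naive 1 to 6. Novice libraries had 839.7, 1193, 441.3, 546.3, 507.0 and 335.8 FPKM. Expert libraries had 765.4, 949.1, 1671, 350.7, 404.8 and 821.6 FPKM. Expert 3 was the highest and naive 6 the lowest, and the group ranges overlap almost entirely. Mt2 had 101.0 to 355.1 FPKM in naive (median 199.7), 86.2 to 293.7 in the novice group (median 139.2) and 84.2 to 491.8 in expert libraries (median 203.1).

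The mean of Mt1 was 868.2 ± 466.9 FPKM (SD, n = 6) in naive libraries, 643.9 ± 317.7 in novice and 827.2 ± 476.8 in expert libraries. Novice was lower than naive by -0.35 (SE 0.49) in log2 for Mt1 and by -0.38 (SE 0.42) for Mt2, with adjusted p of 0.90 and 0.89 in limma. Expert and naive differed by -0.05 for Mt1 and 0.06 for Mt2, with 95% intervals of -1.08 to 0.97 and -0.83 to 0.94. Differences of the size of the SE could therefore not be detected for either gene.

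Metallothionein values were lower in the libraries of higher silent-gene signal. All 8 libraries of the higher class had 284.8 to 546.3 FPKM of Mt1, and all 10 of the lower class 668.0 to 1671 FPKM, with no overlap, as for 12.6% of all genes tested. Mt2 had 84.2 to 139.7 FPKM in the higher and 138.9 to 491.8 FPKM in the lower class. The novice group held 4 of the 8 libraries of the higher class. Within the classes novice against naive was -0.08 and 0.27 for Mt1 and -0.21 and 0.13 for Mt2 in the lower and higher class, so the lower novice mean did not hold within both. With the silent-gene signal as a covariate the novice against naive difference was -0.04 for Mt1 and -0.09 for Mt2, and expert against naive was -0.43 and -0.29. The higher class also held mostly the shallower libraries, and the part of the silent-gene signal or of depth in these values was not tested further.

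**Figure D4:**
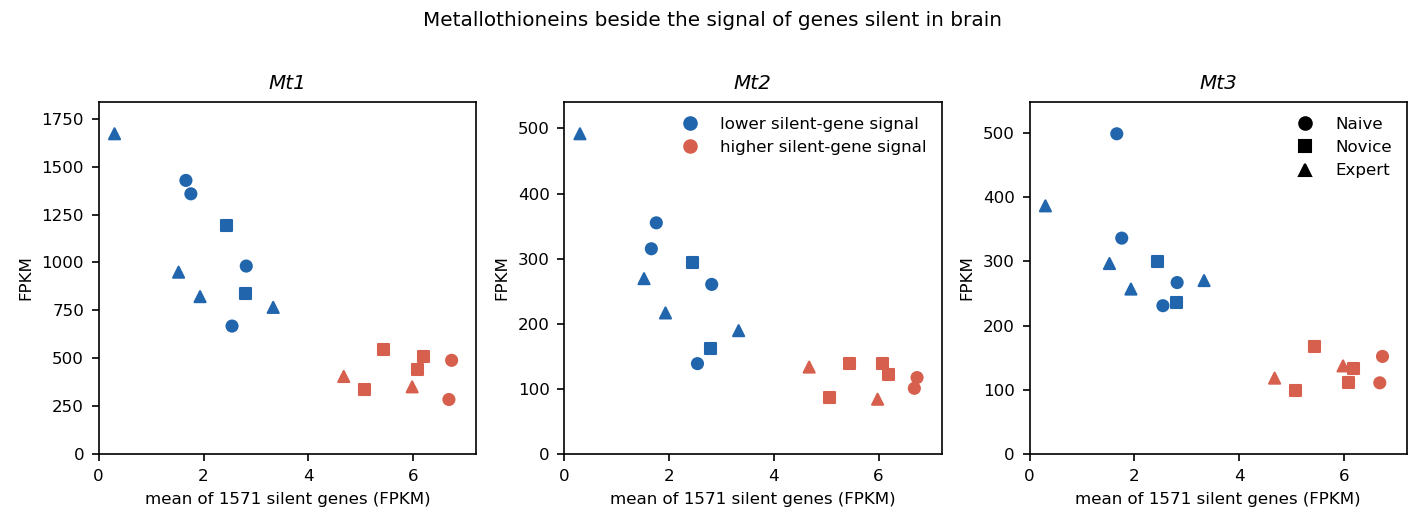
Mt1, Mt2 and Mt3 in FPKM against the mean of the 1571 genes silent in brain, 1 point per library; shape gives the group and colour the class of silent-gene signal. The 8 libraries to the right hold 284.8 to 546.3 FPKM of Mt1 and the 10 to the left 668.0 to 1671 FPKM, with all 3 groups on both sides.

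Mt1 and Mt2, whose promoters are shown above, varied together. Within the lower class Pearson r between them was 0.95 (n = 10, permutation p = 0.00009, adjusted p = 0.0099) and Spearman rho 0.94 (adjusted p = 0.021), the only 1 of 110 relations among members and with the silent-gene signal to pass after adjustment. Without naive 3 and expert 3, the farthest from the median, r was 0.89. With single libraries left out, or both that go against their labelled sex, r was 0.92 to 0.96 and passed in 18 of 19 settings. It was 0.92 without expert 3 (adjusted p = 0.074) and 0.89 after median ratio scaling (adjusted p = 0.067), and 0 relations passed in these 2 settings. In the higher class r was 0.73 and rho 0.71 (n = 8, exact permutation, adjusted p = 0.66 and 0.59). Within the lower class r with the silent-gene signal was -0.70 for Mt1 and -0.75 for Mt2 (permutation, adjusted p = 0.27 each). After removing group means and a linear term in the log2 of that signal, r between Mt1 and Mt2 was 0.83 over the 18 libraries. The part of that signal in the relation of Mt1 and Mt2 was not tested further. The ratio of Mt1 to Mt2 was 2.82 to 5.19 over the 18 libraries, with a mean of 3.90 ± 0.59 (SD). It averaged 3.99 in naive, 4.06 in novice and 3.66 in expert libraries, whose ranges overlap. Mt1, Mt2 and Mt3 are close copies of one another, so reads may be shared between them in a way the FPKM values do not show.

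Mt3, the metallothionein typical of brain, followed the same pattern without being a member. It had 110.8 to 498.2 FPKM in naive libraries, 99.6 to 299.4 in novice and 118.1 to 386.1 in expert libraries, and was the gene most like Mt1 in residual pattern, with Pearson r 0.91 over 18 libraries. Fbxw11 and Asrgl1 followed (0.90 each). Mt3 was above Mt2 in 14 of 18 libraries and below Mt1 in all 18. Its range was 230.8 to 498.2 FPKM in the lower class and 99.6 to 166.8 in the higher. Mt4, a skin metallothionein, was listed at 0 in 14 of 18 libraries and was not tested.

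Metallothioneins were also set beside the astrocyte markers. In the lower class Pearson r with the mean of the 12 astrocyte markers was 0.86 for Mt2 (permutation p = 0.0014, adjusted p = 0.057 over 40 relations) and rho 0.85 (adjusted p = 0.12). For Mt1 r was 0.81 (adjusted p = 0.066) and rho 0.77 (adjusted p = 0.26), so neither passed the correction. Without naive 2 and expert 3 the r values of Mt2 and Mt1 were 0.75 and 0.55. In the higher class r was 0.03 for Mt2 and 0.08 for Mt1 (exact permutation, adjusted p = 0.98 each). Over all genes 57% were higher in novice than naive and 40.4% higher in expert than novice. Those with a mean of at least 5 FPKM went the other way, with median log2 differences of -0.09 and 0.14. All 12 astrocyte markers were lower in novice than naive (median log2 difference -0.59) and higher in expert than novice (0.76). None of the 12 passed an adjusted p of 0.05 in limma. Their mean moved with the class of silent-gene signal, at 5.76 to 6.38 in the 8 libraries of the higher class and 6.73 to 8.01 in the 10 of the lower. Between novice and naive the median difference was -0.38 within the lower class and -0.01 within the higher. The relations with marker levels were computed after the values were seen.

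For the remaining members the most similar residual patterns over the 18 libraries were those of Lrrc8c, Hif3a and Sptlc2 with Tsc22d3 (Pearson r 0.86, 0.80 and 0.80). Trps1, Nsdhl and Sec13 were most like Ddit4 (0.78, 0.78 and 0.76). Klhdc10, Psmc3 and Phf2 were most like Zbtb16 (0.88, 0.88 and 0.86), and Nufip2, Txnl1 and Med18 most like Pdk4 (0.85, 0.85 and 0.82). Mt2 was most like Dctn6, Mt1 and Selt (0.85, 0.83 and 0.83). These are the highest values among 8908 candidate genes and are given as a description.

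The receptor machinery was expressed at all stages. Nr3c1, the glucocorticoid receptor, had 14.4 ± 2.83 FPKM (SD, n = 6) in naive libraries, 11.9 ± 3.93 in novice and 16.9 ± 5.95 in expert libraries. Hsd11b1, which regenerates active corticosterone inside cells, had 37.5 ± 16.2, 30.4 ± 8.06 and 38.7 ± 18.4 FPKM. Both are named for their role and not by the rule for named genes. For comparison, 57% of all genes were higher in novice than naive and 40.4% higher in expert than novice. Better expressed genes, with a mean of at least 5 FPKM, went the other way, with median log2 differences of -0.09 and 0.14. Of 17 genes of the receptor and its partners, 15 were lower in novice than naive (median log2 difference -0.27). In expert against novice 15 were higher (0.33), and none of the 17 passed an adjusted p of 0.05. The mineralocorticoid receptor Nr3c2 (5.89, 4.22 and 6.77 FPKM) and the cochaperone Stip1 (21.9, 13.4 and 17.6 FPKM) were among those with the smallest unadjusted F test p. Astrocyte markers had the same directions in these comparisons, and their part was not tested. The mean of the 17 genes was 3.97 to 4.33 in the higher class of silent-gene signal, which held 4 of the 6 novice libraries, and at least 4.45 in the lower. Within the lower class novice against naive had a median of -0.09, with 13 of 17 lower, and within the higher class 0.15, with 12 of 17 higher, so the lower novice level did not hold within both.

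Among 25 other genes known to be induced by glucocorticoids, 17 were higher in expert than naive (median log2 difference 0.17), 14 higher in novice than naive (0.07) and 17 higher in expert than novice (0.29). Expert 3 and expert 6, the libraries high in endothelial and pericyte markers, had the highest expert means of these 25 genes, at 3.92 and 4.02. The other 4 expert libraries had 3.36 to 3.64 and the naive libraries 3.30 to 3.59. Leaving out the highest expert libraries had to lower the expert values, while novice 6, at 3.87, was kept. Without expert 3 and expert 6, 11 of 25 were higher in expert than naive (median -0.03) and 14 of 25 higher in expert than novice (0.06). Of all genes 43.9% were higher in expert than naive, 57% in novice than naive and 40.4% in expert than novice. Those with a mean of at least 5 FPKM had median log2 differences of 0.02, -0.09 and 0.14 there. In the same order 2.86%, 4.6% and 10.9% of all genes had an unadjusted p under 0.05. None of the 25 genes passed an adjusted p of 0.05 in limma in the fit of all libraries, and 4, 0 and 2 had an unadjusted p under 0.05. The 3 with the smallest F test p were Dusp1, a phosphatase that ends MAP kinase signalling, Cebpd, a transcription factor, and Txnip, a regulator of glucose uptake and redox state. Dusp1 had 14.3 ± 7.07 FPKM (SD, n = 6) in naive libraries, 19.2 ± 5.90 in novice and 29.7 ± 14.7 in expert libraries. Expert against naive was 0.99 (SE 0.31) for Dusp1, 0.81 (SE 0.30) for Cebpd and 0.67 (SE 0.25) for Txnip in log2, each with an adjusted p of 0.9996 in limma, and 0.58, 0.58 and 0.50 without expert 3 and expert 6. Arrdc3, at 0.46 (SE 0.20), was the fourth below an unadjusted p of 0.05 and was named after its value was seen.

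Dusp1 is also an early response gene. Of 19 immediate early genes, 14 were higher in expert than naive (median 0.34) and 12 higher in novice than naive (0.07). Beside them, 43.9% and 57% of all genes were higher in these comparisons, and genes with a mean of at least 5 FPKM had medians of 0.02 and -0.09. The list mean was 4.04 in expert 3 and 4.12 in expert 6, and 3.31 to 3.65 in the other 4 expert libraries. The former 2 were the highest expert libraries for this list, so leaving them out had to lower the expert values. High libraries of other groups, such as naive 4 at 3.90, were kept. Without expert 3 and expert 6, expert against naive had a median of 0.08, with 12 of 19 higher. Jun, Btg2 and Jund had the smallest F test p, at 0.58 (SE 0.28), 0.65 (SE 0.26) and 0.33 (SE 0.26) in log2 for expert against naive, and 0.22, 0.29 and 0.13 without those 2 libraries. Among 12 targets of p53, which also induces Cdkn1a, 8 were higher in expert than naive (median 0.11), with Btg2, Sesn1 (0.45) and Phlda3 (-0.25) leading by F test. Without expert 3 and expert 6, 7 of 12 were higher, and Phlda3 turned to 0.17. None of these genes passed an adjusted p of 0.05.

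Of 16 tested genes of zinc and metal handling, 9 were higher in expert than naive (median log2 difference 0.04) and 6 higher in novice than naive (-0.11). The shares over all genes were 43.9% and 57%, and genes with a mean of at least 5 FPKM had medians of 0.02 and -0.09. The zinc exporter Slc30a1, itself a target of Mtf1, had 11.3 ± 2.21 FPKM (SD, n = 6) in naive libraries, 11.9 ± 4.62 in novice and 18.5 ± 6.22 in expert libraries, a log2 difference of 0.63 (SE 0.24) between expert and naive. The zinc importer Slc39a10 was at 0.53 (SE 0.23), and Slc30a5 at 0.20 (SE 0.30). Without expert 3 and expert 6 these were 0.36, 0.25 and 0.03, and 6 of 16 genes were higher in expert than naive (median -0.02). Those 2 libraries had the highest list means of the expert group, so leaving them out had to lower the expert values. Naive 2, with a list mean of 4.42, was kept. None of these genes passed an adjusted p of 0.05 in limma. Among 14 tested relatives of the members, Sgk2 had 2.33 ± 1.27 FPKM in naive libraries, 5.05 ± 2.02 in novice and 1.82 ± 1.43 in expert libraries, beside silent-gene means of 0.303 to 6.73 FPKM in the same libraries. Zbtb20 (30.8, 23.2 and 39.9 FPKM) and Tsc22d1 (59.2, 54.1 and 85.1 FPKM) had the next smallest F test p.

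Sex was compared over the 6 libraries labelled female and the 12 labelled male. No member had an unadjusted p under 0.05, where 1.33% of genes did, and no gene passed after adjustment. The log2 differences of the members ran from -0.18 for Fkbp5 to 0.58 for Ddit4 (SE 0.40). Without novice 1 and novice 3, 5 libraries labelled female and 11 labelled male remained. No member had an unadjusted p under 0.05 there, where 1.45% of genes did, and Ddit4 was at 0.54 (SE 0.46). After adjustment 5 genes passed in limma, none of them a member.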

How the data were processed

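Astrocytes of the primary motor cortex were profiled in 18 libraries of naive, novice and expert mice (6 each). Per the labels' protocols, RNA was cleaned on a silica column, libraries were made with a SMARTer stranded total RNA kit and sequenced on a HiSeq instrument. Per the submitters' processing notes, TopHat and Cufflinks were used with genome build mm9, with versions and options not given in the sources used here. Deposited by the authors was 1 value per gene and library in FPKM, and read totals are not part of these values. Of 23951 table entries, 27 whose names had become dates were left out.

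The members and all gene lists were chosen with earlier results of these data known. The 21745 genes that reached 1 FPKM in 6 or more libraries were fitted as log2(FPKM + 1) with limma 3.58.1 in R 4.3.3 (lmFit, eBayes with a trend), with 1 mean per group, all 18 libraries and no covariate. Tests were two-sided with Benjamini-Hochberg adjustment over all tested genes at 0.05. A pseudocount of 1 understates the change of low genes. Fragments were recovered from the FPKM steps, a value counting as whole within 0.1 of a fragment. Relations between members were computed within each class of silent-gene signal by permutation (100000 resamples for the class of 10 libraries, exact for 8). All 10 members are named, with the 3 genes of smallest F test p from each pathway list (1 of these is not reported here) and the 3 genes most alike to each member with a mean of at least 5 FPKM. The fit was tested on simulated data. Alternatives were another pseudocount and filters, median ratio and quantile scaling, covariates, array weights, a replicate block and each library left out. Intervals and floors cover counting error only. Figures and permutations used Python 3.11.15, NumPy 2.4.6 and matplotlib 3.10.9.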

Additional observations from a re-analysis of the deposited data

How the results depend on the processing

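No member passed an adjusted p of 0.05 in limma for a comparison of stages under any alternative, and the smallest was 0.17 (Ddit4, expert against novice, array weights). Of 30 member differences, 13 kept their direction in every setting run, including Ddit4 in all 3 comparisons and Tsc22d3 against naive. The other 17 turned in at least 1 setting. The filter of 5 FPKM removed Fkbp5. Median ratio scaling moved the median of all genes to 0.21 for novice less naive, -0.12 for expert less naive and -0.34 for expert less novice. The cause of the turns below was not tested.

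With a pseudocount of 0.1, expert against novice turned to 0.012 for Cdkn1a. With median ratio scaling, expert against novice turned to -0.25 for Sgk1 and -0.27 for Pdk4. There, novice against naive turned to 0.10 for Fkbp5 and 0.17 for Errfi1. In that setting, expert against naive turned to -0.052 for Cdkn1a and -0.040 for Mt2. After quantile normalization, expert against novice turned to 0.023 for Fkbp5, -0.083 for Sgk1, 0.067 for Cdkn1a and -0.053 for Pdk4. There, novice against naive turned to -0.091 for Cdkn1a and 0.022 for Errfi1. In that setting, expert against naive turned to 0.030 for Zbtb16, -0.024 for Cdkn1a and 0.24 for Mt1. With the silent-gene signal as a covariate, expert against novice turned to 0.042 for Cdkn1a, -0.029 for Pdk4, -0.39 for Mt1 and -0.21 for Mt2. There, expert against naive turned to -0.29 for Mt2. With array weights, expert against novice turned to 0.0091 for Tsc22d3, -0.0074 for Sgk1, 0.048 for Cdkn1a and -0.0037 for Pdk4. In that setting, novice against naive turned to 0.085 for Fkbp5 and 0.17 for Errfi1. There, expert against naive turned to -0.056 for Mt2. Without the 2 libraries that go against their labelled sex, expert against novice turned to -0.12 for Sgk1, 0.11 for Cdkn1a and -0.018 for Pdk4. In that setting, novice against naive turned to -0.053 for Cdkn1a and 0.016 for Errfi1. With endothelial markers as a covariate, added after seeing the data, expert against novice turned to -0.30 for Sgk1. There, expert against naive turned to -0.010 for Sgk1. Without expert 3 and expert 6, also added, expert against novice turned to -0.11 for Sgk1. There, expert against naive turned to 0.17 for Phlda3, a p53 target. The gene lists without these 2 libraries and within each signal class, and Ddit4 within a class with 1 library left out, were also added after seeing the data. With liver transcripts as a covariate, also added, expert against novice turned to 0.066 for Errfi1. That list was drawn up after its likeness to Errfi1 was seen, so this turn decides nothing.

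With each library left out in turn, novice against naive ran from -0.15 to 0.022 for Fkbp5, -0.019 to 0.24 for Zbtb16, -0.11 to 0.20 for Cdkn1a and -0.13 to 0.15 for Errfi1. With each library left out in turn, expert against naive ran from -0.19 to 0.094 for Zbtb16, -0.10 to 0.20 for Cdkn1a, -0.33 to 0.15 for Mt1 and -0.20 to 0.30 for Mt2. With each library left out in turn, expert against novice ran from -0.17 to 0.065 for Tsc22d3, -0.11 to 0.12 for Sgk1, -0.15 to 0.16 for Cdkn1a and -0.086 to 0.080 for Pdk4. The relation of Mt1 and Mt2 was the only one to pass, and 0 relations passed after median ratio scaling. With 1 library left out 0 to 1 passed, with 0 without expert 3. Replicate numbers name libraries only: same-numbered libraries of different groups correlated at -0.39 to 0.51 in their deviations from group means. With the replicate number as a block, 0 members were called, Ddit4 in expert against naive stayed at 1.55, and 2963 in place of 2360 genes had an unadjusted p under 0.05 in expert against novice. At 0 to 37 fragments per library, depth limits Cdkn1a, Ddit4, Fkbp5 and Errfi1.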
